A study of Mus musculus with 6 samples.

Results

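Transcripts of 49 genes of DNA replication and nucleotide synthesis were followed in 6 mouse neural stem cell lines, on 1 Affymetrix array per line. The genes were taken as a fixed list by function, chosen with earlier results of these data known. Each was read from a probe set that the annotation gives to that gene alone. The one with the highest mean signal over the 6 arrays was used. All 49 had such a probe set and all 49 passed the filter on low signals, so that they make up 49 of the 12663 genes tested and of the 18193 genes on the array. They were grouped by machine into 9 origin genes, 12 helicase genes, 9 polymerase genes, 11 clamp, clamp loader, ligation and single-strand binding genes, 5 nucleotide enzymes, and cyclin E with its kinase (3 genes). The study compared 3 lines labelled as lacking FoxO, a family of transcription factors restrained by growth factor signalling, with 3 lines labelled wild type. The labels give no FoxO allele, strain, age, treatment or culture time, and they do not say from which animals the lines came, so p-values measure the spread between these lines only.

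Replication begins where the origin recognition complex (the Orc proteins) binds DNA and, with Cdc6 and Cdt1, loads the ring of Mcm2 to Mcm7 in G1. Cyclin E with Cdk2 helps to fire these origins, when Cdc45 and the GINS complex join the ring and make it an active helicase. Polymerase alpha with primase starts each strand, and polymerases delta and epsilon extend it while held by the sliding clamp Pcna, which replication factor C loads. Ribonucleotide reductase, thymidylate synthase, thymidine kinase and dUTPase supply the deoxynucleotides. Many of these genes are switched on together at the G1 to S transition by E2F factors, so their transcripts are widely used as signs of cycling cells, among them dividing neural progenitors.

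The values are MAS5 signals, brightness on a linear scale, whose trimmed mean is 100 on every array. Array medians lay between 25.5 and 32.8, and between pairs of arrays r across the tested genes was 0.942 to 0.968. The labels could not be checked by the targeted transcripts. Of 9 probe sets for Foxo1, Foxo3 and Foxo4, 8 had their higher mean in the FoxO-null group. For 5 of these the groups do not overlap. The Foxo4 probe set used read 178, 57.2 and 190 in the FoxO-null group and 5.56, 4.14 and 17.1 in the wild-type group. Its log2 difference of 3.24 was the highest of all 12663 genes tested, and the other Foxo4 probe set was at -0.31. Where the 9 probe sets lie relative to any deleted exon is not known here. The lines are therefore called null-labelled and wild-type-labelled, and every direction follows the labels. All 10 neural stem cell markers looked at, Nes and Sox2 among them, were above the bacterial control probe sets on every array. So were 8 of 8 astrocyte, 6 of 7 oligodendrocyte lineage and 7 of 8 neuron markers, whereas 4 of 7 microglia markers were above them on none.

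The replication genes were lower in the null-labelled lines as a group, and no single gene passed the test over all genes. Differences are in log2(signal + 5.94), null-labelled minus wild-type-labelled, ± the standard error of the limma fit with n = 3 lines a group. Of the 49 genes 45 were negative, and their median was -0.35, a ratio of 0.783, beside a median of 0.00995 and 48.2% negative over all genes tested. At a limma adjusted p under 0.05, 0 of the 49 were called, beside 0.0395% of all genes (5 of 12663). The smallest adjusted p among them was 0.136. At an unadjusted p under 0.05, 26 of the 49 were lower (53.1%) and 0 were higher, beside 4.9% lower and 5.31% higher of all genes. These shares of all genes are also those to set beside each later count by machine in this fit. The 3 null-labelled lines lay wholly below the 3 wild-type-labelled lines in 25 genes (51%) and wholly above in 0, where all genes gave 7.93% and 8.08%. In whole cultures, fewer cells in S phase and less of these transcripts per cell cannot be told apart.

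A pair of arrays stood furthest apart in these genes. Relative to each gene's mean over the 6 arrays, the median of the 49 genes stood at -0.30, -0.090 and -0.17 on null-labelled arrays 1 to 3 and at 0.28, 0.091 and 0.15 on wild-type-labelled arrays 1 to 3. Null-labelled 1 was the lowest array for 28 of the 49 genes, and wild-type-labelled 1 was the highest for 24. These arrays also differed in the signal of Xist, at 35.8 and 3730. It was 5920 and 33.1 on null-labelled 2 and 3, and 6330 and 25.5 on wild-type-labelled 2 and 3. The part of this in the replication genes was not tested. Without null-labelled 1 the 26 genes at an unadjusted p under 0.05 became 12, with 46 of 49 negative and a smallest adjusted p of 0.559, beside 3.26% of all genes lower in that fit. Wild-type-labelled 1 had an 18S rRNA control signal of 211 beside 23.5 to 38.9 on the others. Without it the count was 20, beside 4.56% of all genes lower in that fit. With both null-labelled 1 and wild-type-labelled 1 left out, 44 of 48 genes were negative. The median was then -0.25, beside -0.35 with all 6 arrays. In that fit 7 had an unadjusted p under 0.05, beside 3.06% of all genes lower. Fits with fewer lines have less precision, so a lower count in them is not by itself a smaller difference. By machine, the count at an unadjusted p under 0.05 without null-labelled 1 was 4 in place of 7 for the helicase, 1 in place of 3 for the polymerases, 2 in place of 5 for the clamp genes and 2 in place of 4 for nucleotide enzymes. For the origin genes it was 3 in place of 4. For nucleotide enzymes it was also 2 without null-labelled 2, and for the clamp genes 3 without wild-type-labelled 1. Without both arrays numbered 1 it was 0 for origin, 3 for helicase, 1 for polymerase and 1 for clamp genes. It was then 2 for nucleotide enzymes and 0 for cyclin E with Cdk2. In all 6 fits that left out 1 array, 41 of the 49 genes stayed negative. In each of those 6 fits 12 genes had an unadjusted p under 0.05: Cdc6, Cdt1, Orc5, Mcm4, Mcm5, Mcm7, Gins2, Pold2, Rfc5, Fen1, Tk1 and Dut.

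**Figure D1:**
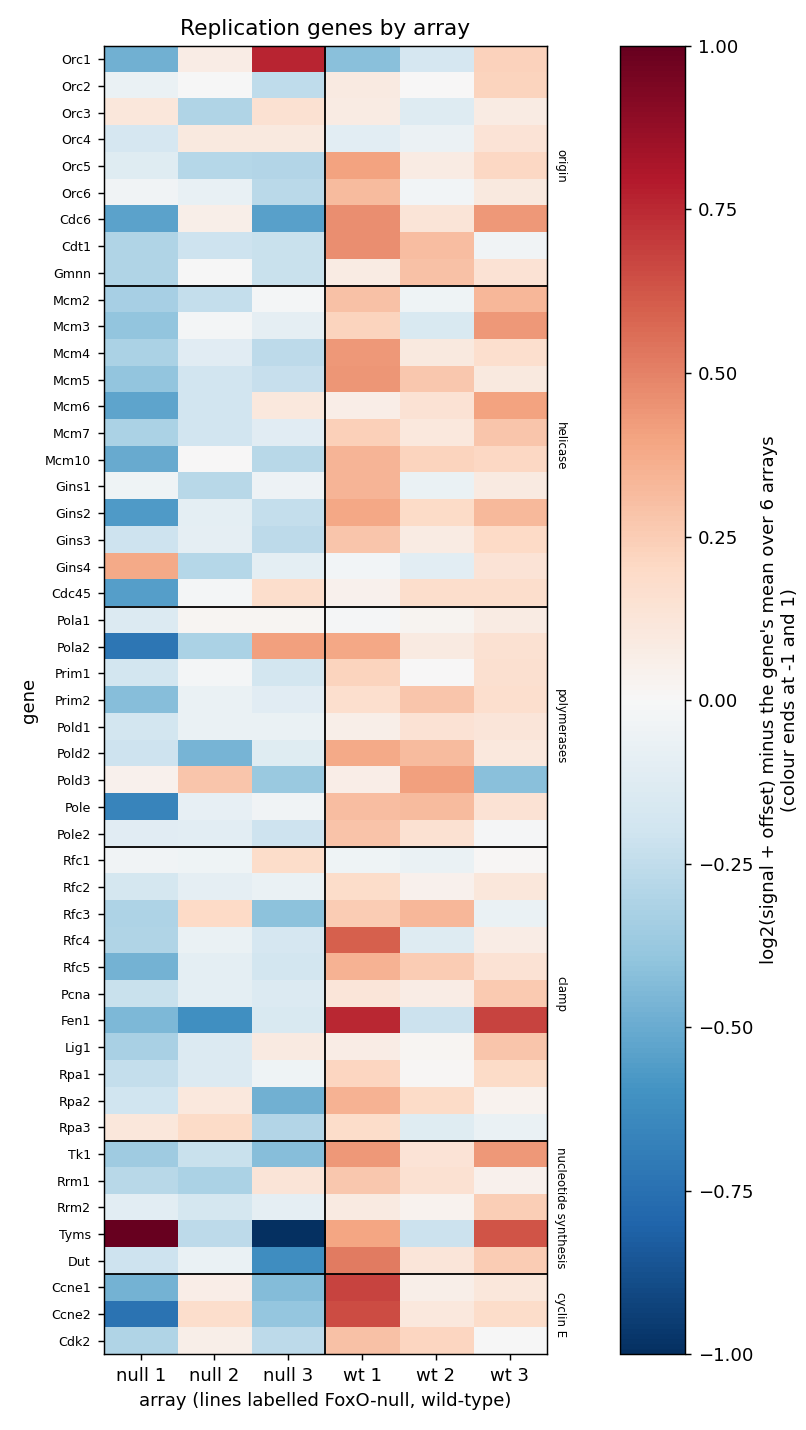
Each row is a gene and each column an array, with colour for log2(signal + offset) minus the gene's mean over the 6 arrays; the colour scale ends at -1 and 1, which Tyms passes. Most rows are blue (low) on the null-labelled arrays at left and red (high) on the wild-type-labelled arrays at right, with null-labelled 1 lowest in 28 rows.

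Glial markers were on the other side in the same arrays. Of 8 astrocyte markers 4 were higher at an unadjusted p under 0.05, beside 5.31% of all genes. The summed signal of the 8 was 6572 to 7601 in the null-labelled lines and 4550 to 5843 in the wild-type-labelled lines. Of 6 tested oligodendrocyte lineage markers 4 were higher, with sums over 7 markers of 14630 to 15500 and 11350 to 12960. Of the 10 neural stem cell markers 7 were positive, with a median of 0.21. At an unadjusted p under 0.05, 3 were higher (Nr2e1, Msi1 and Prom1) and 0 lower. Their sums, to which Vim and Fabp7 gave the highest signals, were 27740 to 31430 and 22380 to 30430. Of 8 neuron markers 5 were negative, with a median of -0.052. At an unadjusted p under 0.05, 1 was lower (Tubb3, -0.64) and 0 were higher. Their sums, to which Map2 gave the highest signal, were 1567 to 1582 and 1438 to 1830, overlapping between the groups. The microglia list summed to 116 to 127 and 92.5 to 134, and those of the endothelial and fibroblast list to 117 to 197 and 104 to 190.3. The part of any of these in the replication genes was not tested.

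As most of the genes lay on the same side of 0, their promoters were searched for the letters of E2F sites, and the promoter of the gene of smallest p that holds such a site is shown for each machine that has one. The RefSeq promoter windows (mouse build GRCm38.p6, 250 bases before to 50 after the start) were matched by symbol, and 40 of the 49 genes had at least 1 window. The sites searched on both strands were TTTCCCGC, TTTGGCGC, TTTCGCGC and TTTGCCGC, which can overlap each other. Of the 40 genes 16 held at least 1 (40%), beside 4.61% of the 10236 tested genes with a window and 2.6% of all 27025 genes, at a median GC content of 61.3%, 60.7% and 52.7%. By machine these were 5 of 8 helicase genes, 4 of 8 origin genes, 4 of 7 polymerase genes, 2 of 10 clamp genes, 1 of 2 for cyclin E and Cdk2, and 0 of 5 nucleotide enzymes. No match says only that these letters are not in the window. The sequences below run from 5′ to 3′ on the gene's strand, and capitals mark the matches.
Cdt1 (chr8:122567765-122568064, plus strand): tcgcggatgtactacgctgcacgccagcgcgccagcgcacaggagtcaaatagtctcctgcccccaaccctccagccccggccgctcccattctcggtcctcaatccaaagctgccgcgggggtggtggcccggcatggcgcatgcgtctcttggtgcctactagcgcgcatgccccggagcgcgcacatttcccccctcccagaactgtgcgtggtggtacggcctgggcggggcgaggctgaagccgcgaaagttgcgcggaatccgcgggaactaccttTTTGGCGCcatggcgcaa
Mcm5 (chr8:75109259-75109558, plus strand): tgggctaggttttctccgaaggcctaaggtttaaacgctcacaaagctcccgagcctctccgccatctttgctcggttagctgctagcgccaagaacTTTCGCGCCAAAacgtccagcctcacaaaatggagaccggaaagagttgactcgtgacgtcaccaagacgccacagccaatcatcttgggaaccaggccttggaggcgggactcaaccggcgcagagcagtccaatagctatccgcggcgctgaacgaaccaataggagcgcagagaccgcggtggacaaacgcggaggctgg
Pole2 (chr12:69228141-69228440, minus strand): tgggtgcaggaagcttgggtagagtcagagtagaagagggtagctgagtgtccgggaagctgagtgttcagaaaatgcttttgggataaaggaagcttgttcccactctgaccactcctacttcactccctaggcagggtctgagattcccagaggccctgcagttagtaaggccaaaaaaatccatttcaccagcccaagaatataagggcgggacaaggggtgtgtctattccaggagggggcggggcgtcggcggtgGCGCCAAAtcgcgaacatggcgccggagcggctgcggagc
Rfc3 (chr5:151651159-151651458, minus strand): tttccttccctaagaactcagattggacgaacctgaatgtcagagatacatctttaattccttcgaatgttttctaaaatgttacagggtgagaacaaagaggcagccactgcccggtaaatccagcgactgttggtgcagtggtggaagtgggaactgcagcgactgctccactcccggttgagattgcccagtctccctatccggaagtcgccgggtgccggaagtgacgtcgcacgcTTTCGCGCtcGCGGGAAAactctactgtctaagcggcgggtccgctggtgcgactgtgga
Cdk2 (chr10:128705002-128705301, minus strand): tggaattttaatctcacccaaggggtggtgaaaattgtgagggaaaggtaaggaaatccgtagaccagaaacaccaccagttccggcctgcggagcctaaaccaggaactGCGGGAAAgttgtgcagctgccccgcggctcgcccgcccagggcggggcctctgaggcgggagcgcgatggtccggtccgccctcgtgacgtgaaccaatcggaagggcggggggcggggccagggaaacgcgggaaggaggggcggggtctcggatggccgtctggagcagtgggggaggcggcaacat

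In Mcm5 the capitals hold 2 overlapping matches, TTTCGCGC on the gene's strand and TTTGGCGC on the other, from position 98 of the window, and in Rfc3 2 matches lie near the start, at positions 241 and 251. Mcm6 held 3 matches, and Mcm3 and Mcm7 held 2 each. The median difference was -0.34 over the 16 with a match, of which 15 were negative, and -0.37 over the 24 without, of which 21 were negative. The 9 genes with no window had a median of -0.41. At an unadjusted p under 0.05, 6 of the 16, 14 of the 24 and 6 of the 9 were lower, beside 4.9% of all genes. Whether genes with and without a match differ was not tested. CCAAT, the letters of an NF-Y site, stood in the windows of all 8 helicase genes and 60% of the 40, beside 42.9% of tested genes. TTTGAA, the element that binds repressor complexes in G2 and M phase genes, was in 12.5% of the 40 genes, beside 14.2% of tested genes and 64.7% of 17 mitosis genes.

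Among the 9 origin genes both loader genes, geminin and Orc5 were lower on average at an unadjusted p under 0.05. Cdt1, which brings the helicase ring to the origin, read 344, 367 and 362 on null-labelled arrays 1 to 3 and 588, 526 and 414 on wild-type-labelled arrays 1 to 3. Its null-labelled lines lay close together and all below the other group, a difference of -0.49 ± 0.14 (limma p 0.00462, adjusted 0.267). As the mean over its probe sets it was -0.38, with an unadjusted p of 0.0635. That mean takes in a probe set below the filter on low signals, at -0.15, while the further one above the filter was at -0.50. The other loader, Cdc6, an ATPase, read 53.7, 84.3 and 53.4 against 113, 88.7 and 111, where null-labelled 2 was within a few units of wild-type-labelled 2 (-0.68 ± 0.22, adjusted p 0.324). Gmnn, the geminin gene, whose product holds Cdt1 inactive after origins have fired, read 305, 376 and 322 against 400.1, 464 and 418. It was lower in the same lines as the loader it restrains (-0.35 ± 0.13, adjusted p 0.374).

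Of the 6 subunit genes of the recognition complex only Orc5 had an unadjusted p under 0.05 in the probe sets used, at 140.1, 125 and 124 against 204, 162 and 177 (-0.46 ± 0.15, adjusted p 0.33). The groups did not overlap in Orc2 (-0.21) and Orc6 (-0.26) either, whose unadjusted p were 0.172 and 0.0932. For Orc2 the 2 other probe sets were lower still, at -0.61 and -0.45, and the mean over all 3 was -0.43 (unadjusted p 0.0205). Orc3 at -0.022 ± 0.16 and Orc4 at 0.015 ± 0.14 lay near 0, and Orc4 turned to -0.054 with median centring. Orc1, the subunit that comes and goes with the cell cycle, read 34.9, 54.2 and 90.9 and 36.8, 44.7 and 61.0, the widest spread of the 6 (0.24 ± 0.33). The positive sign rested on null-labelled 3, without which it was -0.085. The median of the 6 was -0.12, and that of all 9 origin genes -0.26, with 4 at an unadjusted p under 0.05. With the mean over all probe sets of each gene the origin median was -0.35, with 6 of 9 negative.

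All 12 helicase genes were negative, with a median of -0.40 and 7 at an unadjusted p under 0.05. All 6 subunit genes of the Mcm2 to Mcm7 ring lay between -0.55 and -0.34 in the probe sets used. Mcm5 had the smallest p of them and read 572, 661 and 641 against 1030, 912 and 810.4, with the groups well apart (-0.55 ± 0.12, p 0.000837, adjusted 0.179). Mcm7 read 1932, 2117 and 2233 against 2845, 2595 and 2922 (-0.41 ± 0.11, adjusted p 0.224). Mcm4 read 354, 408 and 367 against 598, 474 and 498 (-0.47 ± 0.13, adjusted p 0.245). In these 3 subunits every null-labelled line was under every wild-type-labelled line, and in the other 3 the groups overlapped in the probe sets used.

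Mcm2 read 474, 507 and 590.0 against 732, 580.2 and 755, where null-labelled 3 passed wild-type-labelled 2 (-0.39 ± 0.14, adjusted p 0.362). Mcm6 read 367, 467 and 574 against 558, 589 and 708 (-0.41 ± 0.16, adjusted p 0.415), and null-labelled 3 passed wild-type-labelled 1. Mcm3 read 506, 659.8 and 628 against 782, 599 and 905, and its p of 0.058 missed 0.05 (-0.34 ± 0.16). Within its group, wild-type-labelled 2 was the lowest for Mcm2 and Mcm3, and wild-type-labelled 1 for Mcm6. As the mean over all probe sets of a gene, Mcm5 was at -0.14, Mcm6 at -0.15 and Mcm2 at -0.24, with unadjusted p of 0.499, 0.39 and 0.0904. For Mcm5 and Mcm6 that mean takes in a probe set below the filter on low signals, at 0.58 and 0.35. Their further probe sets above the filter were at -0.46 and -0.39, and that of Mcm2 was at -0.085. For Mcm3 the further probe sets were at -0.55 and -0.35 with groups wholly apart, at -0.27 with overlap, and at 0.18 with weaker signals.

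Among the factors that turn the loaded ring into a moving helicase, Gins2 stood lowest and Gins4 did not differ beyond its error. The GINS subunit gene Gins2 read 199, 278 and 251 against 389.7, 341 and 374, with no overlap (-0.60 ± 0.15, p 0.00153, adjusted 0.196). Gins3 also had groups apart, at 49.6, 54.3 and 47.5 against 72.0, 62.0 and 67.6, but its weak signals gave a wider error (-0.37 ± 0.21, p 0.104). Gins1 was at -0.25 ± 0.17. Gins4 read 246, 153 and 174 against 184, 174 and 207, with null-labelled 1 the highest of all 6 arrays where it was the lowest for most other genes (-0.0018 ± 0.18), and its sign turned to 0.012 with quantile normalization. The 4 subunits of this complex thus ranged from -0.60 to -0.0018.

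Mcm10, which helps the helicase start, read 98.1, 142 and 116 against 181, 165 and 164 (-0.51 ± 0.17, adjusted p 0.324). Its other probe sets were far weaker and went the other way, at 0.026 and 1.115, the latter below the filter on low signals. The mean over all 3 was 0.21. Cdc45, the helicase partner of the ring, read 133, 195 and 224 against 203, 224 and 224. Only null-labelled 1 stood apart there, and the difference of -0.26 ± 0.18 became -0.053 without it. With the mean over all probe sets of each gene, the median of the helicase genes was -0.25 in place of -0.40, with 4 at an unadjusted p under 0.05. It then lay above the origin median where it had lain below. For Mcm5, Mcm6, Mcm10 and Gins1 that mean takes in a probe set below the filter on low signals.

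**Figure D2:**
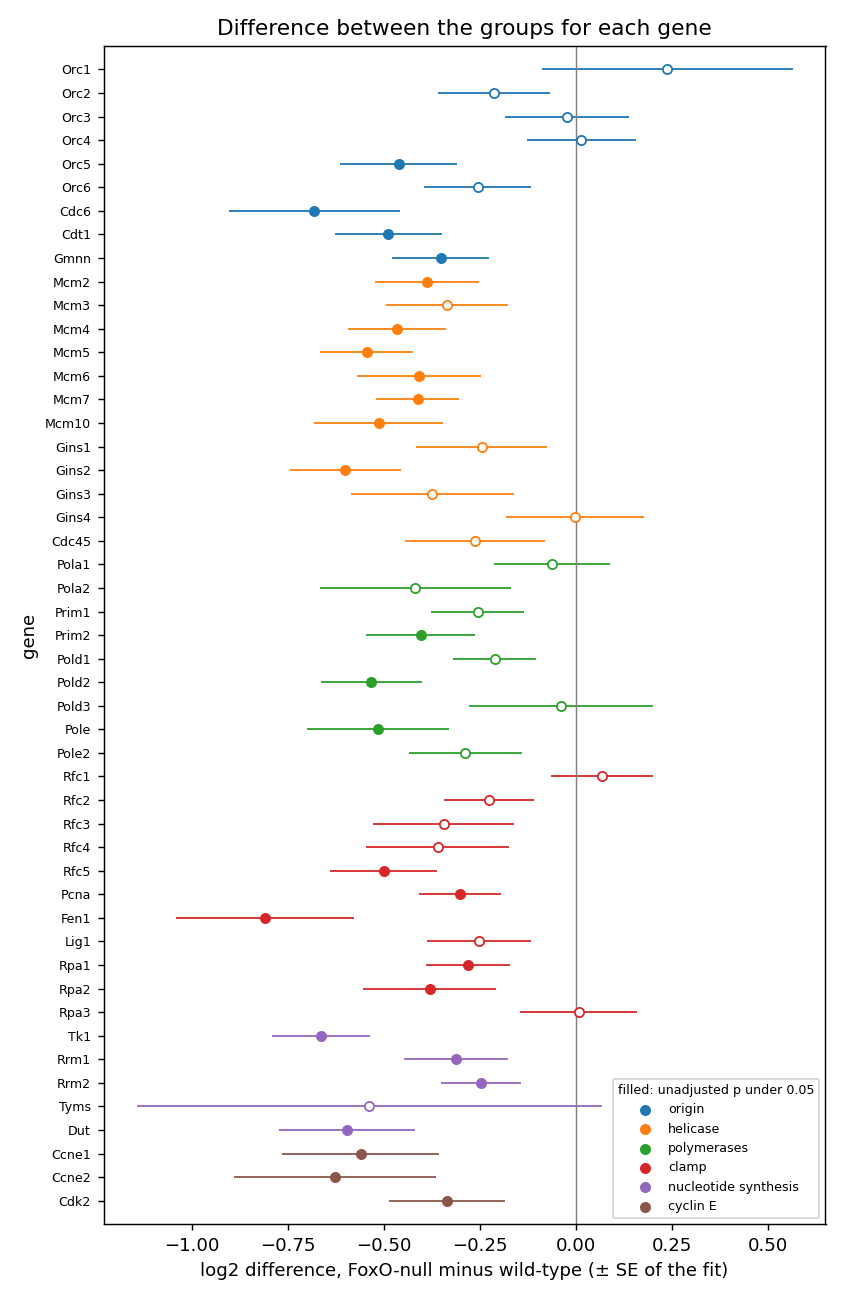
Points give each gene's log2 difference (null-labelled minus wild-type-labelled) and bars its standard error, coloured by machine; filled points have an unadjusted limma p under 0.05. Of the 49 points 45 lie left of 0 and 26 are filled, and no filled point lies right of 0.

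The polymerase genes were all negative (9 of 9), with a median of -0.29 and 3 at an unadjusted p under 0.05. Pold2, the second subunit of the lagging-strand polymerase delta, had the smallest p and read 388, 323 and 411 against 584, 561 and 483 (-0.53 ± 0.13, p 0.00181, adjusted 0.204). No line crossed between the groups, and null-labelled 2 was the lowest array. The catalytic subunit gene of the same enzyme, Pold1, was also lower in every null-labelled line but by less, at 412, 447 and 446 against 488, 517 and 508 (-0.21 ± 0.11, p 0.0763). Pold3, a further subunit, read 111, 132 and 81.7 against 113, 145 and 79.0, with both groups spread over the same range (-0.039 ± 0.24). Its sign turned to 0.14 without null-labelled 3 and to 0.16 without wild-type-labelled 2, so that 8 of 9 were then negative.

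For polymerase epsilon of the leading strand, the catalytic subunit gene Pole read 93.5, 143 and 147 against 188, 189.9 and 168 (-0.52 ± 0.19, adjusted p 0.373). Null-labelled 1 was well below the other 2 lines of its group. Pole2, its second subunit, read 144, 145 and 135 against 192, 175 and 155 (-0.29 ± 0.15, p 0.0754), again with no overlap. The regulatory primase subunit gene Prim2 read 157, 203 and 196 against 239, 258 and 239.9 (-0.41 ± 0.14, adjusted p 0.371). Its catalytic partner Prim1 was at -0.26 ± 0.12 with groups that do not overlap. As the mean over all probe sets, Prim2 had an unadjusted p of 0.186 and Prim1 of 0.0264, and Pole2 was at -0.12. For Prim2 and Pole2 that mean takes in a probe set below the filter on low signals. Pola1, the catalytic subunit of polymerase alpha, was level at 114, 127 and 127 against 124, 128 and 133 (-0.062 ± 0.15), while its partner Pola2 at -0.42 ± 0.25 had null-labelled 3 as its highest array.

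Clamp, loader and single-strand binding genes had a median of -0.30, with 9 of 11 negative and 5 at an unadjusted p under 0.05. Without both arrays numbered 1 the median was -0.19. Pcna, the sliding clamp, read 3178, 3461 and 3367 against 4021, 3888 and 4448, a small and even difference with groups apart (-0.30 ± 0.11, p 0.0158, adjusted 0.371). Rfc5 had the smallest p of the loader subunits, at 189.8, 248 and 233 against 339.7, 318 and 295 (-0.50 ± 0.14, adjusted p 0.257). Rfc2 (-0.23 ± 0.12), Rfc3 (-0.34 ± 0.18) and Rfc4 (-0.36 ± 0.19) were lower on average with unadjusted p of 0.08, 0.0855 and 0.0777. For Rfc4 the difference leaned on wild-type-labelled 1 at 298, beside 177 and 206, and was -0.15 without it. The other Rfc4 probe set, at -0.75, had groups wholly apart, and the mean of both was -0.56 (unadjusted p 0.00724). Rfc3 as the mean over its probe sets was at -0.44 (unadjusted p 0.00981). Rfc1, the large subunit, was at 0.068 ± 0.13 in the probe set used (214, 213 and 251 against 213, 209.7 and 222), and lay on the other side of 0 with median centring (-0.00027) and without null-labelled 3 (-0.0084).

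Fen1, the nuclease that trims Okazaki fragments, had the largest difference of all 49 genes. It read 193, 172 and 238 against 452, 228 and 428 (-0.81 ± 0.23, p 0.00486, adjusted 0.27). Wild-type-labelled 2 was below null-labelled 3, and the other 2 wild-type-labelled lines were far above both. The other Fen1 probe set was at -0.58. As the mean over all probe sets Fen1 was at -0.69 and Dut at -0.78. Lig1, the ligase that seals those fragments, was at -0.25 ± 0.14 (p 0.0896).

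Of the single-strand binding subunits, Rpa1 read 1204, 1295 and 1380 against 1657, 1432 and 1630 (-0.28 ± 0.11, adjusted p 0.41), with no overlap. Rpa2 read 158, 196 and 129 against 232, 209 and 186, where null-labelled 2 passed wild-type-labelled 3 (-0.38 ± 0.17, adjusted p 0.486). Rpa3, the smallest subunit, read 393, 417 and 296 against 413, 333 and 347 and was level (0.0073 ± 0.15), or -0.061 with median centring. Whether the 3 subunits differ from each other was not tested.

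All 5 nucleotide enzymes were negative, and 4 had an unadjusted p under 0.05. Tk1, the cytosolic thymidine kinase of dividing cells, had the smallest p of the 49 genes and read 312, 343 and 297 against 542, 439.6 and 542 (-0.66 ± 0.13, p 0.000271, adjusted 0.136). The highest null-labelled line was well below the lowest wild-type-labelled line, and the difference lay between -0.76 and -0.61 in the fits that left out 1 array. Dut, the dUTPase that keeps uracil out of DNA, read 165, 182 and 122 against 276, 208 and 229 (-0.60 ± 0.18, adjusted p 0.281). Null-labelled 3 was its lowest array and no line crossed the gap between the groups.

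The ribonucleotide reductase subunits differed by less. Rrm2, the subunit that limits the enzyme in S phase, read 2186, 2089 and 2216 against 2514, 2416 and 2793, with groups apart (-0.25 ± 0.10, adjusted p 0.448). Rrm1, the large subunit, read 988, 963 and 1315 against 1449, 1339 and 1239, and null-labelled 3 passed wild-type-labelled 3 (-0.31 ± 0.13, adjusted p 0.455). As the mean over its probe sets its unadjusted p was 0.0757, and that mean takes in a probe set below the filter on low signals. Tyms, the thymidylate synthase gene, read 51.4, 16.6 and 2.71 against 29.5, 17.3 and 35.7, above the highest bacterial control probe set on 4 of 6 arrays. Its difference of -0.54 ± 0.61 was smaller than its error, and turned to 0.15 without null-labelled 3. A probe set that the annotation gives to Tyms together with its pseudogene was not used here. Since Tyms was the middle gene of the 5, the median of -0.54 became -0.31 with an offset of 16 and with the probe set of highest mean log2 value.

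**Figure D3:**
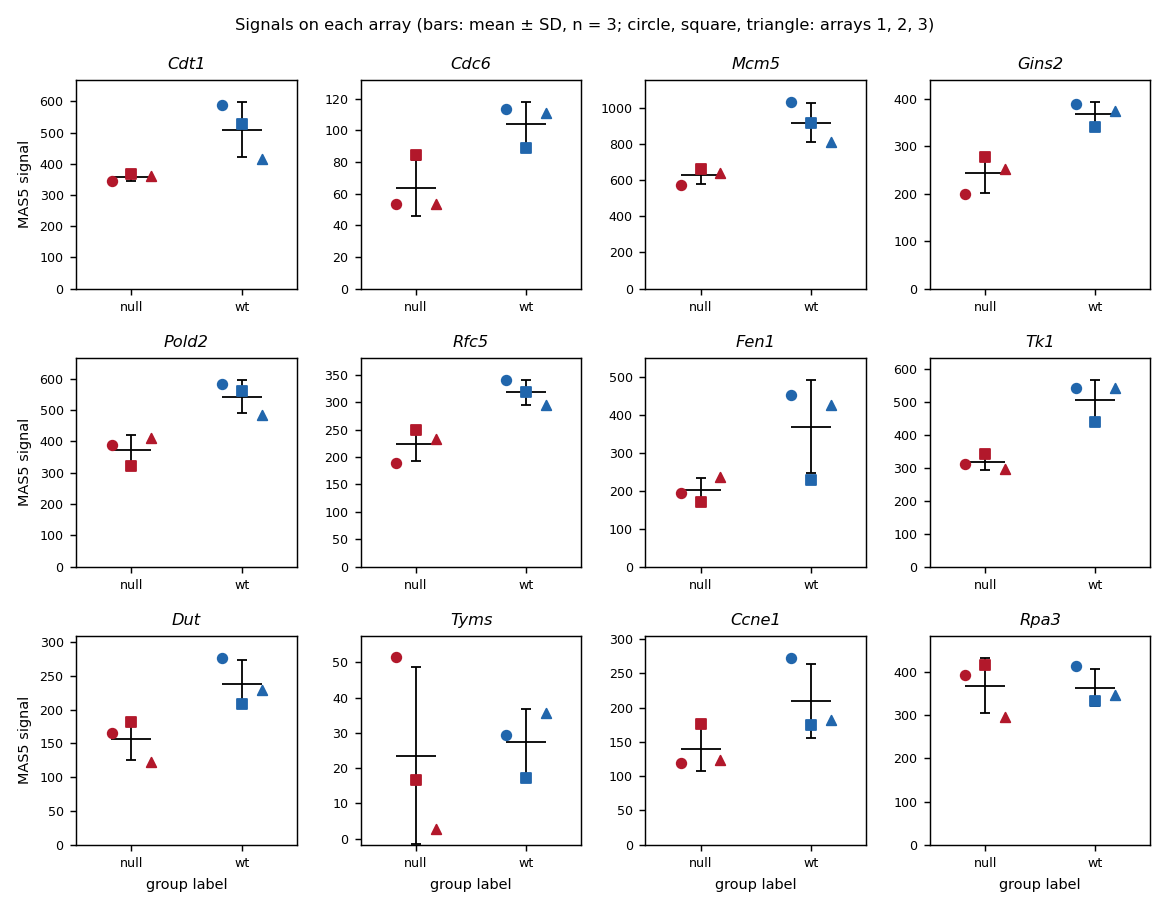
MAS5 signals of 12 genes are plotted for each array, null-labelled lines in red and wild-type-labelled lines in blue, with bars for the mean ± SD of 3 lines; axes start at 0 except for Tyms, whose SD reaches below it. Tk1, Mcm5, Gins2, Pold2, Rfc5, Dut, Cdt1 and Cdc6 have groups apart, and Fen1, Ccne1, Tyms and Rpa3 have groups that overlap.

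Cyclin E and its kinase were lower on average but overlapped in all 3 genes in the probe sets used. Ccne1 read 119.9, 176 and 123 against 272, 175 and 182 (-0.56 ± 0.21, p 0.0188, adjusted 0.376). The other Ccne1 probe set read 84.4, 66.2 and 54.7 against 142.7, 94.7 and 104, with no overlap (-0.69). Ccne2 read 41.1, 82.6 and 54.2 against 117, 78.4 and 83.3 (-0.63 ± 0.26, adjusted p 0.446). For Cdk2, the kinase that both cyclins activate, the signals were 172, 222 and 177 against 263, 249 and 212 (-0.34 ± 0.15, adjusted p 0.481). Null-labelled 2 was the array that crossed in each of the 3 genes, and wild-type-labelled 1 was the highest in each. In each of the fits without null-labelled 1, null-labelled 3 or wild-type-labelled 1, 0 of the 3 had an unadjusted p under 0.05. With the mean over all probe sets Cdk2 had an unadjusted p of 0.0757, and its other probe set was below the filter on low signals. The median of -0.56 was -0.36 without wild-type-labelled 1 and -0.25 without both arrays numbered 1.

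**Figure D4:**
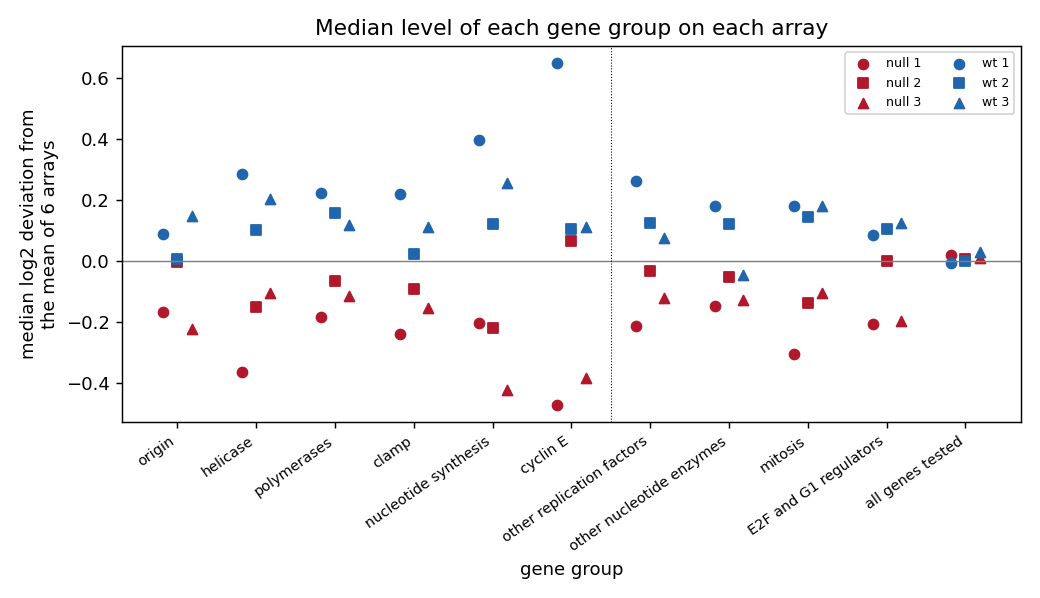
For each gene group the points give the median log2 deviation of its genes from their mean over 6 arrays, red for null-labelled and blue for wild-type-labelled arrays; circles, squares and triangles are arrays 1, 2 and 3. In each of the 6 machines left of the dotted line the 3 red points lie below the 3 blue points, by the least for origin genes (-0.0042 and 0.0053 on the arrays numbered 2), and over all genes tested the points lie between -0.0060 and 0.031.

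Other probe sets of the same genes were read as a check of the measurement, not as further lines. The 49 genes had 107 probe sets of their own, and 36 genes had more than 1. Of the 44 further probe sets above the filter on low signals, 35 had the same sign as the one used and 9 the opposite sign. At an unadjusted p under 0.05, 18 of the 44 were lower and 0 were higher. Opposite signs came from Orc1, Orc3, Orc4, Rfc1, Mcm3 and Mcm10. For Orc4 and Rfc1, near 0 in the probe set used, both others above the filter were negative, at -0.22 and -0.44 for Orc4 and at -0.16 and -0.41 for Rfc1. For Orc3 both were positive, at 0.22 and 0.67. All 3 further probe sets of Mcm7 were negative, between -0.52 and -0.44, and so were both of Rrm2, at -0.32 and -0.49.

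**Figure D5:**
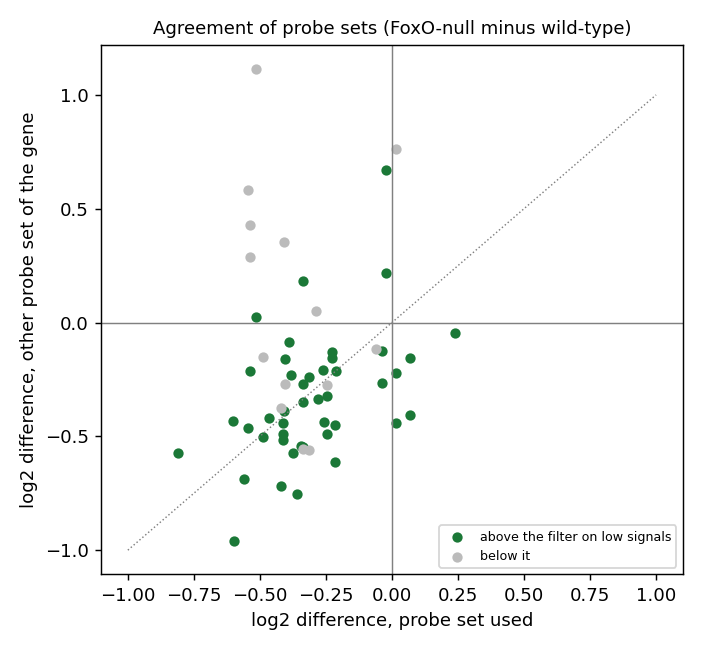
Each point is a further probe set of a gene, placed by the log2 difference of the probe set used (x) and its own (y), both null-labelled minus wild-type-labelled; the dotted line marks equal values, and grey points are below the filter on low signals. Of the 44 green points 35 share the sign of the probe set used, and 9 do not.

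Further genes of the same pathways, listed by function, were mostly negative too. Of 28 other replication factors 26 were tested, 21 of them negative with a median of -0.33. At an unadjusted p under 0.05, 10 were lower and 2 higher, beside 4.9% and 5.31% of all genes. Chaf1b, which places histones on new DNA, read 111, 116 and 96.9 against 166, 145 and 195 (-0.61 ± 0.17, adjusted p 0.246), and the nuclease and helicase gene Dna2 was at -0.70 ± 0.20 (adjusted p 0.275). In the other direction Pold4, the small subunit of polymerase delta, had a signal of 202 ± 29.3 against 152 ± 23.4 (mean ± SD, n = 3; 0.40 ± 0.17 in log2, adjusted p 0.448), so that this subunit and Pold2 lay on opposite sides of 0. Ticrr, a factor for loading Cdc45, was at 0.82 ± 0.36 (adjusted p 0.458) with weak signals.

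Of 24 other nucleotide enzymes 21 were tested, with 17 negative and a median of -0.20. At an unadjusted p under 0.05, 5 were lower and 0 higher, beside 4.9% and 5.31% of all genes. Umps and Cad of pyrimidine synthesis were the lowest in p, at -0.57 ± 0.18 and -0.39 ± 0.14 (adjusted p 0.306 and 0.391). Rrm2b, the reductase subunit used outside S phase, read 153, 116 and 131 against 118, 126 and 123, a difference of 0.11 ± 0.16 where Rrm2 was at -0.25. Tk2, the mitochondrial thymidine kinase, read 108, 71.2 and 84.4 against 56.4, 63.1 and 69.3 (0.43 ± 0.21, p 0.0669), with all null-labelled lines above the others, where Tk1 had them all below. Dguok, another mitochondrial deoxynucleoside kinase, was at 0.21 ± 0.22. Whether these pairs of genes differ from each other was not tested.

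Genes of mitosis and of G1 control were set beside them. Of 20 mitosis genes 19 were tested and all 19 were negative, with a median of -0.34 beside -0.35 for the 49 replication genes. At an unadjusted p under 0.05, 14 were lower, beside 4.9% of all genes. Kif11, a spindle motor, was at -0.51 ± 0.12, the mitotic kinase gene Plk1 at -0.45 ± 0.12, Cdk1 at -0.28 ± 0.13 and its cyclin Ccna2 at -0.24 ± 0.11. Of 22 E2F and G1 genes 15 were negative, with a median of -0.20. At an unadjusted p under 0.05, 6 were lower and 1 higher, beside 4.9% and 5.31% of all genes. E2f1, an activator of the replication genes, read 116, 124 and 124 against 143, 156 and 133 (-0.24 ± 0.15, p 0.144), and Ccnd1, the cyclin upstream of it, was at -0.63 ± 0.14 (adjusted p 0.188). The kinase inhibitor gene Cdkn1a was at -0.32 ± 0.11. Cdkn1c, another inhibitor of cyclin E with Cdk2, was the higher one, at 797, 909.7 and 783 against 231, 492 and 588 (1.02 ± 0.27, adjusted p 0.224), and Cdkn1b was at 0.18 ± 0.18. Whether replication genes as a group differ from these lists was not tested.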

How the data were processed

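RNA of 6 neural stem cell lines, 3 labelled FoxO-null and 3 labelled wild type, was measured on 1-colour Affymetrix arrays. The authors deposited MAS5 signal intensity values, linear and scaled to a trimmed mean of 100, per the submitters' processing notes and the labels; scanner files were not used here. Of 45101 probe sets, 64 are controls, 34945 name 1 gene, 932 several and 9160 none; 34741 matched a RefSeq gene. Each of 18193 genes was read from its single-gene probe set of highest mean signal. The log2 scale was log2(signal + 5.94), where 5.94 is the 20th percentile over probe sets, and genes with a mean under the 40th percentile of probe sets (signal 16.2) were left out, leaving 12663. Groups were compared with limma 3.58.1 in R 4.3.3 (lmFit, eBayes with an intensity trend), which was first tested on simulated data, with Benjamini-Hochberg adjustment over all 12663 genes. An exact permutation test of 3 lines against 3 cannot go below 0.1, so none is given. Depth has no meaning for arrays, and their number limits the precision.

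The members and lists were chosen with earlier results of these data known. Genes were named by a rule: those with an unadjusted p under 0.05, the 2 of smallest p and the largest positive difference in each machine; in other lists the 2 of smallest p in each direction, with E2f1, Rrm2b, Ccna2, Cdk1 and Ccnd1 whatever their values; a further gene of this rule is not reported here. Other genes described by role were chosen after their values were seen. Alternatives were other offsets, filters, centrings, probe set choices, no trend, a replicate block and leaving out each array; leaving out both arrays numbered 1 was added after seeing the data.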

Additional observations from a re-analysis of the deposited data

How the results depend on the processing

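The number of genes at an unadjusted p under 0.05 among the 49, 26 in the report, was 12 (without null-labelled 1) to 24 in the fits that left out 1 array, 18 without the intensity trend, 7 without both arrays numbered 1 and 23 to 27 otherwise. Their median was -0.42 to -0.29 when 1 array was left out and -0.247 without both arrays numbered 1. Of all genes tested, 3.06% to 5.92% were lower at an unadjusted p under 0.05 over all these settings. The labels do not say whether the replicate numbers pair the lines. Correlations of deviations between the groups were 0.0233, 0.092 and 0.121 for lines of the same number and -0.152 to 0.0731 for lines of different numbers. A replicate block gave 27 of the 49 at an unadjusted p under 0.05 and a smallest adjusted p of 0.14. Over all genes, the 5 called by limma became 1 with an offset of 1, without the filter, with quantile normalization, with the mean over all probe sets of a gene, and without both arrays numbered 1. They became 0 with median centring (1047 at an unadjusted p under 0.05) and without the intensity trend (1107), and 0 (without null-labelled 1, 810 unadjusted) to 13 (without wild-type-labelled 3) when 1 array was left out. Median centring also moved the split of all genes at an unadjusted p under 0.05 from 620 lower and 672 higher to 720 and 327, with 48 of the 49 replication genes negative.

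Signs turned for Rfc1 with median centring (-0.000273) and with the mean over all probe sets (-0.166), where Mcm10 was 0.209 and the origin median -0.352 beside -0.248 for the helicase. When 1 array was left out Orc1 ranged from -0.0846 to 0.539 and Rfc1 from -0.0084 to 0.108. The sign also turned in at least 1 of these fits for Gins4 (-0.19 to 0.14), Orc3 (-0.11 to 0.12), Orc4 (-0.033 to 0.10), Pold3 (-0.26 to 0.16), Rpa3 (-0.087 to 0.16) and Tyms (-1.22 to 0.15). The cause of these shifts was not tested, and the mean over all probe sets takes in those below the filter on low signals. Signals near the bacterial controls, as for Tyms, limit what can be read.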
